A study of Homo sapiens with 6 samples.

Results

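The DNAJ genes, also called HSP40 genes, encode cochaperones that steer the HSP70 chaperones. Their members were the genes whose symbol is DNAJA, DNAJB or DNAJC followed by a number, apart from the endoplasmic reticulum stress genes DNAJB9, DNAJB11 and DNAJC3. This rule gave 39 of 27451 genes, 4 in subfamily A, 10 in subfamily B and 25 in subfamily C. RNA was taken from MDA-MB-231 cells, a widely used human mammary carcinoma line known to make neither estrogen nor progesterone receptor. The cells had been exposed to the solvent DMSO (3 libraries) or to H182 at 2 µM for 2 h (3 libraries). The title of the series counts H182 among small inhibitors of Stat3, a transcription factor. No genetic change is named for either group, and 1 cell line was studied. Whether replicates came from separate cultures is not stated, and the spread behind every p-value may therefore be technical.

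A J domain is a short helical module with a conserved histidine, proline and aspartate. It binds an HSP70 that carries ATP, stimulates ATP hydrolysis and so locks the HSP70 onto its client protein. Subfamilies A and B are built like the bacterial DnaJ or its simplified form and bind unfolded clients themselves, while subfamily C members share little beyond the J domain and place HSP70 at special sites such as the ribosome, the mitochondrial import channel or clathrin coats. In stressed cells the heat shock factor HSF1 forms trimers that bind inverted repeats of the letters GAA in the promoters of chaperone genes.

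The libraries were described by TPM (transcripts per 1000000), a length-corrected share of each library, so that levels can be compared between genes but the read depth is unknown. Between 12230 and 12353 genes reached 1 TPM per library, and libraries correlated across genes at r = 0.9928 to 0.9942 within a group and at 0.9787 to 0.9806 between groups. Genes are not independent replicates. The line's markers VIM and CD44 lay at 4026 ± 24.3 and 1154 ± 30.8 TPM with DMSO and at 3585 ± 139.7 and 981 ± 26.3 TPM with H182 (SD, n = 3, as for every ± below). KRT18 lay at 466 ± 8.13 TPM with DMSO and 423 ± 18.4 TPM with H182, and S100A4 at 281 ± 10.1 and 272 ± 14.7 TPM. VIM, CD44 and KRT18 fell in TPM (limma adjusted p = 0.00721, 0.00137 and 0.0331), and S100A4 did not pass. With the median-of-ratios scaling described below, only CD44 of these line markers passed, again lower (limma adjusted p = 0.0255). ESR1 and PGR, the estrogen and progesterone receptor genes, lay at 0 to 0.06 TPM in every library. Of the other breast and receptor markers, ERBB2 lay at 24.92 to 29.4 TPM and EPCAM at 12.49 to 16.15 TPM. FOXA1 lay at 0.19 to 1.83 TPM and CDH1 at 0.03 to 0.28 TPM. GATA3 fell to 0.657 of its DMSO level (limma adjusted p = 0.0047, and 0.0164 with the median-of-ratios scaling described below). Among markers of blood, vessel, stromal and liver cells, CD3E and CDH5 were listed at 0 in every H182 library and reached at most 0.07 TPM with DMSO. The summed level of these markers was 8.03 to 11.35 TPM with DMSO and 8.77 to 9.75 TPM with H182, most of it COL1A1. In such bulk samples a change in the share of cells that hold a transcript and a change in its level per cell cannot be told apart. A change in total RNA per cell is not seen in TPM.

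Promoter stretches of 4 members that hold the letters known to be bound by HSF1, and of 1 without them, are shown first. RefSeq windows of 300 bases (250 before to 50 after an annotated start, GRCh38.p14) were found for 36 of 39 members, 48 windows in all, and none was matched for DNAJC1, DNAJC22 and DNAJC24. Each window was searched on both strands for the 2-unit elements GAANNTTC and TTCNNGAA and for the 3-unit element GAANNTTCNNGAA with its reverse complement TTCNNGAANNTTC, in which both 2-unit elements overlap. A 2-unit element stood in a window of 8 of the 36 members, 22.2%, against 16.2% of all 27305 genes with a window. By window, GAANNTTC was in 6.77% and TTCNNGAA in 7.74% of all 35116 windows, and the 3-unit element in 0.49%. The 8 members were DNAJA1, DNAJA4, DNAJB1, DNAJB4, DNAJB6, DNAJB7, DNAJC6 and DNAJC15. The stretches below lie outside every exon of GENCODE 29, run 5′ to 3′ on the gene's strand, and carry the matched elements in capitals. DNAJA2, which holds none, is given for comparison, and of DNAJA1 the elements alone are given. Where a gene has several windows the one with most 2-unit matches is shown.
DNAJB1: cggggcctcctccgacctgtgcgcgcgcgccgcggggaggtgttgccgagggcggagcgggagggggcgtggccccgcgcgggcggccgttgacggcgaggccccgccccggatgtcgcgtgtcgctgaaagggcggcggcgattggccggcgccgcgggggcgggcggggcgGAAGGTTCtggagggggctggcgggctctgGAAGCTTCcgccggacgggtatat
DNAJB4: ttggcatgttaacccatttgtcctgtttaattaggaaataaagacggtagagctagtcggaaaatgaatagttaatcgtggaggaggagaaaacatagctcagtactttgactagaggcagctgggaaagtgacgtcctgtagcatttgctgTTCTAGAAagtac
DNAJA4: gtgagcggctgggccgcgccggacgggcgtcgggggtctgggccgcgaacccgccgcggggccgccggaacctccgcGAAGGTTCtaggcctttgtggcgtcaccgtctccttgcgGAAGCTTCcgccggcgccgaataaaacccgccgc
DNAJB6: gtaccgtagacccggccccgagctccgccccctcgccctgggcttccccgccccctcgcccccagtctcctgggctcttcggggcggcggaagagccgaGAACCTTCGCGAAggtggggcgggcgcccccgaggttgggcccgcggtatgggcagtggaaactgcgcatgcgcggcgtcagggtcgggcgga
DNAJA2: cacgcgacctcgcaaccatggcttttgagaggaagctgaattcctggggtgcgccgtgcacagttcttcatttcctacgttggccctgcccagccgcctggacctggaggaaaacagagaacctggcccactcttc

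The DNAJB1 stretch (chr19:14518421-14518647, minus strand) held GAAGGTTC from 77 to 70 and GAAGCTTC from 47 to 40 bases before the start of the window shown. The same pair of 8-letter elements stood in DNAJA4 (chr15:78264394-78264543, plus strand), from 91 to 84 and from 52 to 45 bases before the start of the window shown. Both genes have windows at other annotated starts. That of DNAJB1 at chr19:14529222-14529521 held no match, and that at chr19:14517888-14518187 held a match from base 2 after its start. The other DNAJA4 windows held no match. DNAJB4 (chr1:78004689-78004853, plus strand) held TTCTAGAA from 98 to 91 bases before its downstream annotated start, and the window at its upstream start held no match. DNAJB6 (chr7:157336774-157336965, plus strand) held the 3-unit element GAACCTTCGCGAA from 131 to 119 bases before the start. DNAJA1 held GAAGATTC from 198 to 191 bases before the start, and its 3-unit element, GAACTTTCCAGAA, lay from base 4 to base 16 after it. The DNAJA2 stretch lies on the minus strand (chr16:46973789-46973924). A match describes letters only and is not a binding site.

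Comparing the groups showed which DNAJ transcripts differed after 2 h of H182. A few cytosolic members rose strongly, and 24 of the 33 members that could be tested did not pass the test in either direction. DNAJB1, the main stress-inducible HSP40 of the cytosol and nucleus, rose 23.5-fold, its close relative DNAJB4 rose 8.84-fold, and DNAJA1, a cytosolic subfamily A member, rose 2.05-fold. DNAJB2 and DNAJC17 rose less, and DNAJC5, DNAJC9, DNAJC11 and DNAJC27 fell in TPM, and none of these 4 passed with median-of-ratios scaling of the libraries. Of the 39 members, 33 had a mean of at least 1 TPM and were tested. By limma with Benjamini-Hochberg adjustment over 12294 genes, 5 of the 33 were higher in H182 and 4 lower, beside 5.30% of all tested genes higher and 18.7% lower. At least 2-fold rises were found in 3 of 33 members and in 1.30% of all tested genes, and no member fell 2-fold. The median change of the 33 was -0.05 on the log2 scale, and that of all tested genes was -0.09.

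TPM is a share of the library, so that a rise of some transcripts lowers the values of others. With median-of-ratios scaling, which sets the typical gene to no change (median 0.00), 7 of 33 members were higher and 0 lower (9 higher and 3 lower at an unadjusted limma p under 0.05). Over all tested genes 7.91% were then higher and 6.79% lower by adjusted p. No such share was computed for an unadjusted limma p under 0.05. Counts at that limit, here and below, therefore have no share to stand beside. The 5 members that rose in TPM also passed with this scaling, joined by DNAJB6 and DNAJC7, and none of the 4 falls passed. Without scaling, the TPM ranges of both groups were separate in 19 of 33 members, 7 higher and 12 lower, beside 41.4% of all tested genes.

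**Figure D1:**
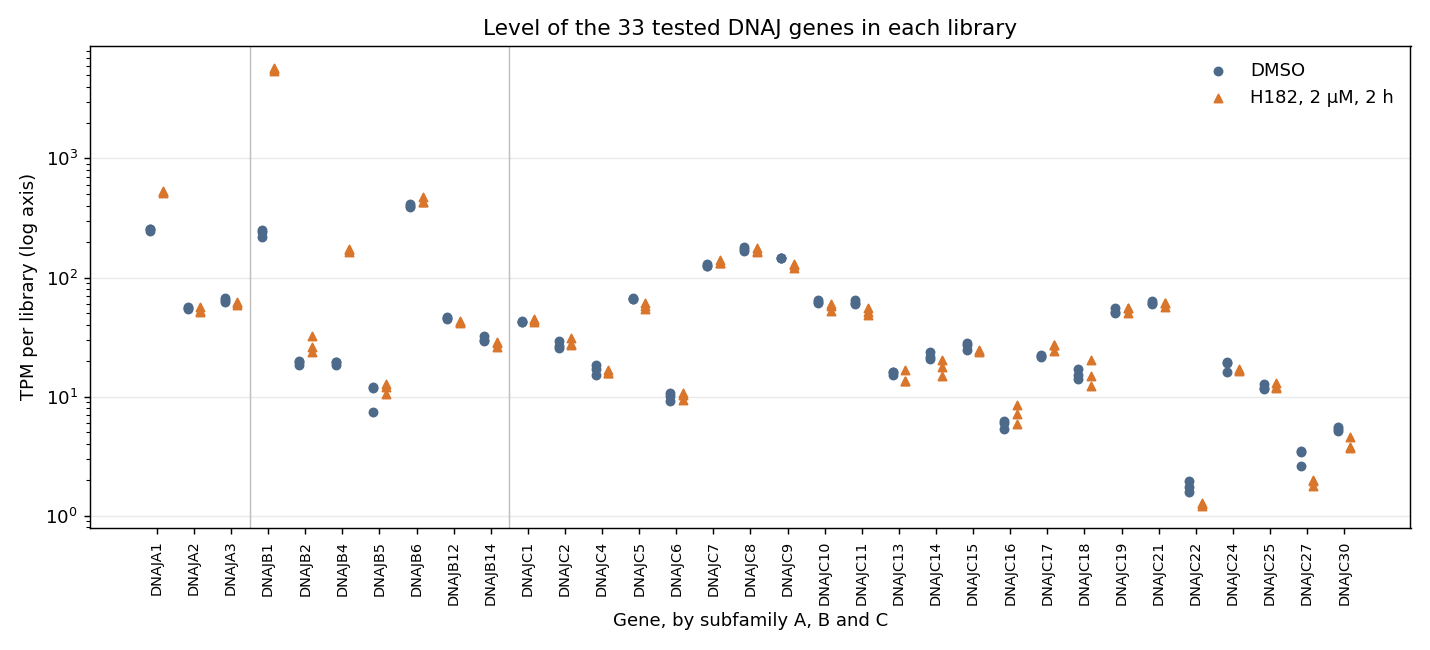
TPM of each of the 33 tested members in every library, on a log axis, with DMSO as circles and H182 as triangles and grey lines between subfamilies A, B and C. DNAJB1, DNAJB4 and DNAJA1 stand apart, with DNAJB1 at 5395.57 to 5763.13 TPM in the H182 libraries and at 220.43 to 252.49 TPM in the DMSO libraries.

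Subfamily B held the largest changes. DNAJB1 (ENSG00000132002.7, chromosome 19, 14514770 to 14529770, minus strand, 3 exons in its principal transcript) stood at 220.43, 241.08 and 252.49 TPM in the DMSO libraries and at 5606.83, 5395.57 and 5763.13 TPM in the H182 libraries. The lowest H182 library was therefore far above the highest DMSO library. The difference was 4.55 on the log2(TPM + 1) scale (SE 0.05, 95% interval 4.44 to 4.66, adjusted p = 6.14e-12). Exons of TECR on the opposite strand cover 5.75% of the DNAJB1 exons, and TECR changed by 0.05 (adjusted p = 0.313). GENCODE also lists 1 pseudogene named after DNAJB1, with which reads could be shared.

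DNAJB4 (ENSG00000162616.8, chromosome 1, 77979175 to 78017964, plus strand, 3 exons), a cytosolic HSP40 of the same build as DNAJB1, stood at 19.66, 19.43 and 18.32 TPM in DMSO and at 171.15, 163.16 and 173.19 TPM in H182. All H182 libraries exceeded all DMSO libraries, with a difference of 3.08 (SE 0.05, 95% interval 2.96 to 3.20, adjusted p = 2.52e-10). DNAJB1 was 11.2 to 13.8 times as abundant as DNAJB4 in the DMSO libraries and 32.8 to 33.3 times in the H182 libraries. DNAJB5, the third gene of this close group, stood at 7.42, 11.97 and 11.84 TPM in DMSO and at 10.44, 12.76 and 12.05 TPM in H182. Its groups overlapped, and the difference of 0.18 had a 95% interval of -0.18 to 0.55 (adjusted p = 0.449), so that a rise of the size seen in DNAJB4 lay outside that interval.

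DNAJB2, which carries ubiquitin-binding motifs and hands clients to the proteasome, stood at 18.39, 19.83 and 19.62 TPM in DMSO and at 23.49, 26.16 and 32.48 TPM in H182. It rose 1.42-fold without overlap, and the H182 libraries were spread more widely (SD 4.62) than the DMSO libraries (SD 0.778). The difference was 0.47 (SE 0.11, adjusted p = 0.0123), and 0.35 without H182 replicate 3 (adjusted p = 0.0195). DNAJB6, a suppressor of polyglutamine aggregation and the most abundant member in DMSO, stood at 390.47, 400.37 and 417.97 TPM in DMSO and at 427.63, 428.68 and 472.31 TPM in H182. The groups did not overlap, but the difference of 0.14 did not pass (95% interval 0.03 to 0.24, adjusted p = 0.0661). It passed with median-of-ratios scaling (0.24, adjusted p = 0.00541).

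DNAJB12 and DNAJB14 are anchored in the endoplasmic reticulum membrane with the J domain facing the cytosol. DNAJB12 was at 46.0 ± 0.953 TPM with DMSO and 42.3 ± 0.975 TPM with H182 (log2 difference -0.12, adjusted p = 0.121), and DNAJB14 at 30.6 ± 1.66 and 27.7 ± 1.49 TPM (-0.14, adjusted p = 0.169). Neither passed, and with median-of-ratios scaling both differences were within 0.05 of 0. In subfamily B as a whole 3 of 7 tested members rose and 0 fell, with 1 lower at an unadjusted limma p under 0.05. Over all tested genes 5.30% were higher and 18.7% lower. With median-of-ratios scaling 4 of the 7 were higher and 0 lower, beside 7.91% and 6.79% of all tested genes. The 3 untested members are known mainly from testis or ciliated cells. DNAJB8 was listed at 0 in every library, DNAJB7 reached at most 0.13 TPM and DNAJB13 at most 0.34 TPM.

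In subfamily A the cytosolic members differed among themselves. DNAJA1 (ENSG00000086061.15, chromosome 9, 33025211 to 33039907, plus strand, 9 exons) stood at 256.08, 257.80 and 247.03 TPM in DMSO and at 527.91, 508.55 and 522.38 TPM in H182. The groups were well apart, and the difference was 1.03 (SE 0.04, 95% interval 0.95 to 1.11, adjusted p = 3.02e-08). GENCODE lists 6 pseudogenes named after DNAJA1, with which reads could be shared. DNAJA2, a second cytosolic member of the same build, stood at 54.77, 56.19 and 55.47 TPM in DMSO and at 52.28, 51.52 and 56.12 TPM in H182. These groups overlapped, and the difference of -0.06 had a 95% interval of -0.18 to 0.06 (adjusted p = 0.461). DNAJA3, which works in the mitochondrial matrix, was at 64.7 ± 2.49 and 60.6 ± 1.91 TPM (-0.09, adjusted p = 0.224).

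DNAJA4, a further cytosolic member, was too low to be tested. It stood at 0.26, 0.33 and 0.13 TPM in DMSO and at 0.66, 1.03 and 1.08 TPM in H182, so that every H182 library exceeded every DMSO library. Its ratio of means was 3.85. With no filter on low values it passed (log2 difference 0.63, SE 0.11, adjusted p = 0.0163), on a scale that understates changes at this level.

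**Figure D2:**
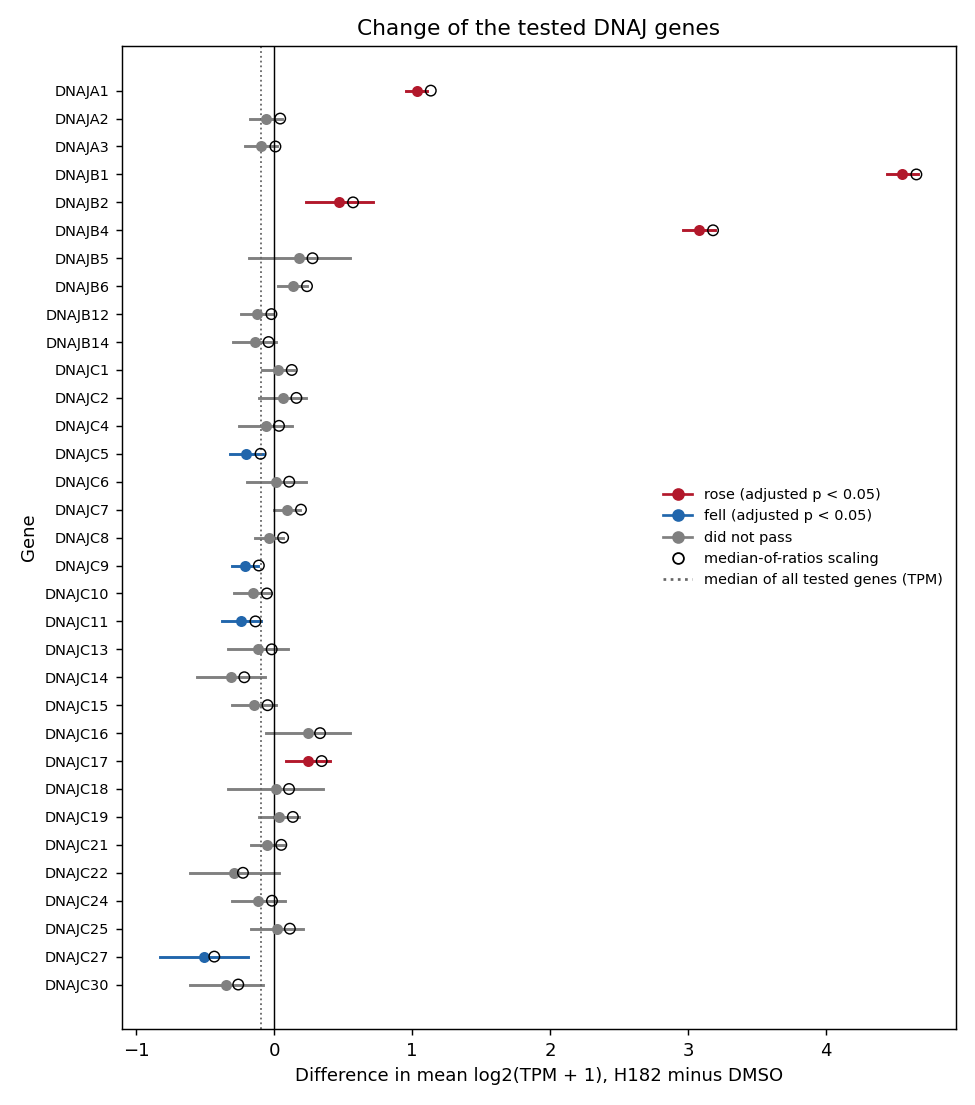
Difference in mean log2(TPM + 1), H182 minus DMSO, for the 33 tested members, with 95% intervals from limma, and open circles for the same difference with median-of-ratios scaling. Only DNAJB1, DNAJB4 and DNAJA1 lie beyond 1, and the 4 members that fell in TPM (blue) lie between -0.51 and -0.20. The dotted line is the median of all tested genes, -0.09.

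Subfamily C, the largest and most varied, changed little. Of its 23 tested members 1 rose, 4 fell and 18 did not pass, with a median of -0.06. These counts lie near the shares over all tested genes, 5.30% higher and 18.7% lower. With median-of-ratios scaling 2 were higher and 0 lower, beside 7.91% of all tested genes higher and 6.79% lower. At an unadjusted limma p under 0.05, 4 members were higher and 3 lower with this scaling. DNAJC17, a nuclear member with an RNA recognition motif that is linked to splicing, stood at 21.97, 22.46 and 21.72 TPM in DMSO and at 27.38, 27.30 and 24.38 TPM in H182. The groups did not overlap, and the difference of 0.25 passed (SE 0.07, adjusted p = 0.0312). It did not pass without DMSO replicate 1, 2 or 3 or without H182 replicate 1 or 2, where adjusted p was 0.0697 to 0.102. Exons of GCHFR on the opposite strand cover 20.4% of the DNAJC17 exons, and GCHFR changed by -0.13 (adjusted p = 0.539). The strand setting of the counting is unknown.

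The 4 members that fell belong to different compartments. DNAJC9, a histone chaperone, stood at 146.53, 144.93 and 146.61 TPM in DMSO and at 129.28, 120.95 and 127.45 TPM in H182, without overlap (log2 difference -0.21, SE 0.04, adjusted p = 0.00585). DNAJC11, a mitochondrial protein linked to the cristae, was at 61.6 ± 2.46 and 52.1 ± 3.50 TPM (-0.24, adjusted p = 0.0219). DNAJC5, the cysteine string protein of secretory vesicles, was at 66.9 ± 0.991 and 58.1 ± 3.30 TPM (-0.20, adjusted p = 0.0259). DNAJC27, a Rab-like GTPase with a J domain, stood at only 2.60, 3.49 and 3.41 TPM in DMSO and at 1.79, 1.96 and 2.01 TPM in H182 (-0.51, adjusted p = 0.0296). With median-of-ratios scaling their differences were -0.11, -0.13, -0.10 and -0.43 in the same order, and their adjusted p-values were 0.124, 0.223, 0.200 and 0.0671. DNAJC27 kept about its size under the other scalings, at -0.47 with quantile normalization (adjusted p = 0.0456) and -0.48 with totals taken without HSPA1A, HSPA1B and DNAJB1 (adjusted p = 0.0449). Only 1 or 2 members fell without DMSO replicate 1, 2 or 3 or without H182 replicate 1 or 2, and 5 without H182 replicate 3. Exons of THAP3 and FAM149B1 on the opposite strand cover 27.9% of the exons of DNAJC11 and 24.0% of those of DNAJC9.

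By compartment, 4 of the 5 members that rose belong to the list of cytosolic folding genes and DNAJC17 to that of the nucleus and ribosome. Over all tested genes 5.30% were higher and 18.7% lower, so that a list of few genes would hold few calls at those shares. Of 8 tested cytosolic DNAJ genes of protein folding, 4 rose and 0 fell (5 higher and 0 lower at an unadjusted limma p under 0.05). This list overlaps subfamilies A and B, adds DNAJC7, and holds members already known to rise in these libraries, so it is no independent evidence. DNAJC7, which binds both HSP70 and HSP90 through tetratricopeptide repeats, was at 127 ± 2.87 TPM with DMSO and 135 ± 4.14 TPM with H182 (0.09, adjusted p = 0.145; 0.19 with median-of-ratios scaling, adjusted p = 0.0164). Of 7 endoplasmic reticulum members, 0 rose and 0 fell, with 2 lower at an unadjusted limma p under 0.05 in TPM and 2 higher with median-of-ratios scaling. Among them DNAJC10, a reductase of disulfide bonds in the lumen, was at 62.7 ± 1.32 and 56.4 ± 3.97 TPM (-0.15, adjusted p = 0.0915), the membrane protein DNAJC1 at 42.8 ± 0.648 and 43.6 ± 1.03 TPM, and DNAJC16 at 5.89 ± 0.522 and 7.21 ± 1.32 TPM.

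Of 5 tested mitochondrial members, DNAJC11 fell and 4 did not pass, beside 5.30% of all tested genes higher and 18.7% lower. The 1 fall among 5 genes lies near the latter share. DNAJC19, a part of the import motor of the inner membrane, was at 52.3 ± 3.11 TPM with DMSO and 53.6 ± 3.16 TPM with H182, and GENCODE lists 9 pseudogenes named after it. DNAJC15, a relative of DNAJC19, was at 26.7 ± 1.89 and 24.0 ± 0.504 TPM (-0.15, adjusted p = 0.161), and DNAJC30, an inner-membrane protein, at 5.35 ± 0.200 and 4.01 ± 0.470 TPM (-0.34, adjusted p = 0.0580). The groups of DNAJC30 and DNAJC15 did not overlap. Among the vesicle members beside DNAJC5 and DNAJC27, the clathrin uncoating factor auxilin (DNAJC6) was at 9.98 ± 0.717 and 10.1 ± 0.730 TPM and the endosomal DNAJC13 at 15.8 ± 0.531 and 14.6 ± 1.92 TPM. In the nucleus and at the ribosome, the splicing-associated DNAJC8 was at 174 ± 6.81 and 169 ± 5.89 TPM, DNAJC2, which acts at the ribosomal tunnel exit, at 27.2 ± 1.87 and 28.4 ± 2.06 TPM, and DNAJC21, a factor of large-subunit maturation, at 61.5 ± 1.98 and 59.4 ± 2.68 TPM. None of these last 5 passed with either scaling.

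The remaining tested members of subfamily C, which were named after their values were seen, did not pass. DNAJC14 was at 22.1 ± 1.45 and 17.7 ± 2.79 TPM (-0.31, adjusted p = 0.0651), with 23.2% of its exons shared on the same strand with the locus RP11-762I7.5 and 21.9% covered on the opposite strand by ORMDL2, which fell by 0.25 (adjusted p = 0.0457). DNAJC22 lay at 1.75 ± 0.191 and 1.25 ± 0.0400 TPM without overlap (-0.29, adjusted p = 0.179). DNAJC4, DNAJC18, DNAJC24 and DNAJC25 changed by -0.06, 0.01, -0.11 and 0.02 on the log2 scale. DNAJC25 shares 13.8% of its exon bases with the readthrough locus DNAJC25-GNG10, between which reads may be divided. DNAJC12 reached at most 0.28 TPM, and DNAJC28 lay at 0.58 to 1.23 TPM with DMSO and 0.46 to 0.55 TPM with H182, without overlap. Neither was tested.

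The rise of DNAJB1 changed the make-up of the whole family. Summed over all 39 members, DNAJ transcripts came to 2139 ± 35.5 TPM with DMSO and 7895 ± 226 TPM with H182, a ratio of 3.69. Without DNAJB1 the sums were 1901 ± 22.5 and 2307 ± 42.1 TPM, and without DNAJB1, DNAJA1 and DNAJB4 they were 1628 ± 22.97 and 1618 ± 32.96 TPM. The other 36 members together therefore differed by less than the spread between libraries in TPM. DNAJB1 held 10.5 to 11.7% of the family's TPM in the DMSO libraries and 70.4 to 71.0% in the H182 libraries. Subfamily C held 45.9 to 47.3% with DMSO and 11.7 to 12.4% with H182, while its summed level was 998 ± 14.2 and 951 ± 2.55 TPM. In DMSO the order of levels was DNAJB6, DNAJA1 and DNAJB1, and the ranges of the last pair overlapped (247.03 to 257.80 and 220.43 to 252.49 TPM). In H182 the order was DNAJB1, DNAJA1 and DNAJB6, with no overlap between neighbours.

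**Figure D3:**
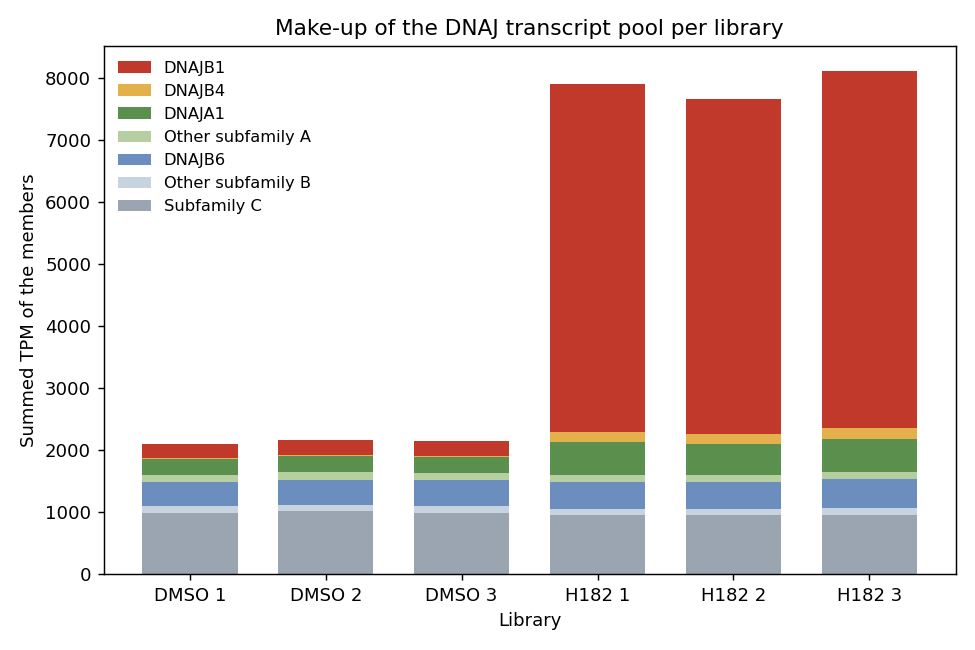
Summed TPM of the 39 members in each library, stacked by DNAJB1, DNAJB4, DNAJA1, the other members of subfamily A, DNAJB6, the other members of subfamily B and subfamily C. The sum lies at 2098 to 2164 TPM in DMSO and at 7663 to 8114 TPM in H182, and DNAJB1 is the part that differs most.

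The partners of these cochaperones were described from lists that were likewise chosen with earlier results known. Of 7 cytosolic HSP70 genes 5 rose and 0 fell (1 lower at an unadjusted limma p under 0.05). Over all tested genes 5.30% were higher and 18.7% lower. HSPA8, the constitutive HSP70, rose 2.16-fold from 2123 ± 58.2 TPM, close in size to DNAJA1, and the inducible HSPA1A, HSPA1B and HSPA6 rose 102-fold, 69.9-fold and 591-fold. Reads of the near-identical HSPA1A and HSPA1B cannot be divided with certainty. The 9 cytosolic DNAJ genes summed to 1126 ± 30.6 TPM with DMSO and 6949 ± 219 TPM with H182, a ratio of 6.17, and the 7 HSP70 genes to 2481 ± 64.2 and 26721 ± 711 TPM, a ratio of 10.8. There were 44.9, 44.3 and 47.0 cytosolic DNAJ TPM per 100 HSP70 TPM in the DMSO libraries and 26.22, 25.74 and 26.05 in the H182 libraries. The groups did not overlap in this ratio, which does not depend on the scaling of the libraries.

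**Figure D4:**
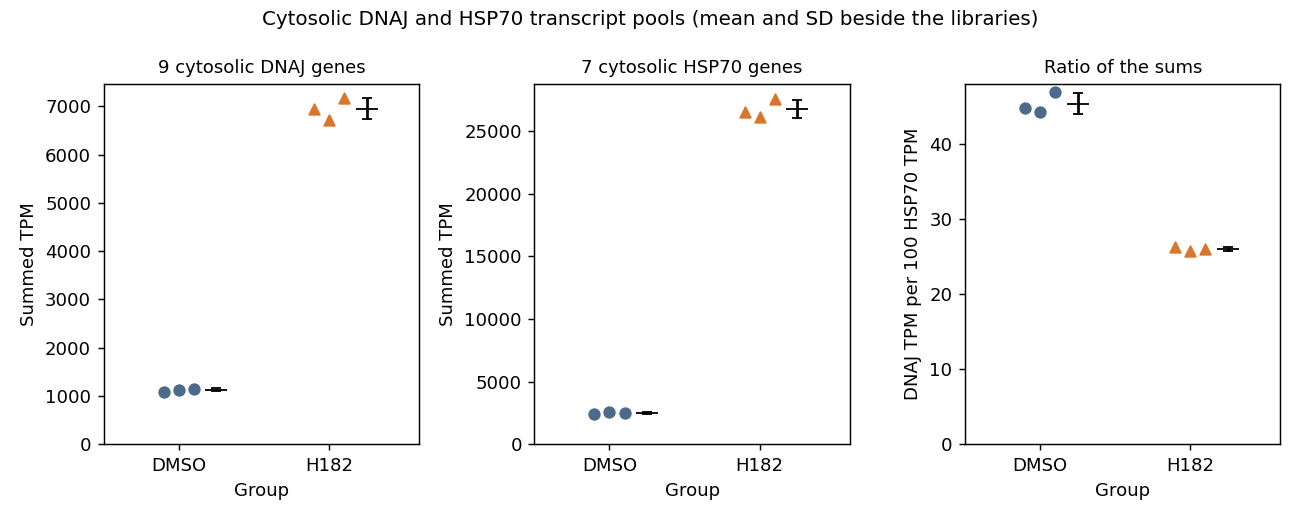
Summed TPM of 9 cytosolic DNAJ genes (left) and of 7 cytosolic HSP70 genes (middle), and DNAJ TPM per 100 HSP70 TPM (right), with a point for each library and the mean and SD of 3 libraries beside them. Both sums are higher in all H182 libraries, and the ratio is lower, at 25.7 to 26.2 against 44.3 to 47.0.

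Nucleotide exchange factors make HSP70 release ADP and the client. Of 10 such genes 5 rose, led by BAG3 (5.86-fold from 110 ± 1.74 TPM) and HSPH1 (5.98-fold from 141 ± 7.68 TPM), and BAG5 fell to 0.674 of its DMSO level. With median-of-ratios scaling 6 of the 10 were higher, joined by BAG1 (limma adjusted p = 0.0421), and 1 was lower. The shares of all tested genes with this scaling were 7.91% higher and 6.79% lower. The shares to set beside the TPM counts of each list here are 5.30% of all tested genes higher and 18.7% lower. Among 5 relay and ligase genes, STIP1, which hands clients from HSP70 to HSP90, rose 1.31-fold, and ST13 (1.06-fold, adjusted p = 0.132) and the other 3 did not pass, although ST13 did with median-of-ratios scaling (adjusted p = 0.0152). Of 7 genes of the mitochondrial HSP70 system 0 rose and 0 fell (1 higher at an unadjusted limma p under 0.05), the lowest p-values being those of TIMM44 (1.10-fold, adjusted p = 0.0511) and GRPEL1 (0.952 of its DMSO level, adjusted p = 0.220). TIMM44, a part of the import motor, passed with median-of-ratios scaling (adjusted p = 0.00378). None of the heat shock factor genes HSF1, HSF2 and HSF4 or the regulator HSBP1 passed (0 at an unadjusted limma p under 0.05). HSBP1 had the lowest adjusted p of them, 0.163, and HSF1 mRNA was at 135 ± 7.81 and 130 ± 4.93 TPM (adjusted p = 0.549). SEC63, a J-domain gene whose symbol lies outside the rule, was at 113 ± 5.24 and 105 ± 9.22 TPM (adjusted p = 0.275).

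Sequence and gene structure were set beside the calls as a description. A 2-unit element of the kind shown above stood in a window of 3 of the 5 members that rose (DNAJB1, DNAJB4 and DNAJA1), in 0 of the 4 that fell, and in 3 of 21 with a window that did not pass (DNAJB6, DNAJC6 and DNAJC15). Over all genes with a window the share with such an element was 16.2%. Members differed in the number of windows searched, with several for DNAJB1 and DNAJB4, and more windows give more room for a match. Whether the element goes with a rise was not tested. Neither DNAJB2 nor DNAJC17, which rose by less than 2-fold, had a match. Among untested members DNAJA4 and DNAJB7 had matches. DNAJB6, with a 3-unit element, changed by 0.14. DNAJB1 and DNAJB4 had 3 exons each, against a median of 8 over the 33 tested members, and the only other tested member with 3 exons or fewer was DNAJC30, with 1. The members lie on 18 chromosomes.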

How the data were processed

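RNA was poly-A selected and made into stranded libraries, per the labels' protocols. The authors deposited TPM per gene and library, scaled to 1000000. The submitters' processing notes name GRCh38 as the build, and RSEM 1.2.25 and STAR 2.5.0 as tools. Annotation, trimming and strand setting are not given in the sources used here. Of 27567 rows, 92 spike-in rows and 24 second rows of X and Y genes were left out. The members, the lists and the naming rule were chosen with earlier results of these data known. The rule named the tested members of subfamilies A and B, the subfamily C members that passed and up to 12 others, and, per partner list, up to 4 genes passing at a log2 change of at least 1 or else the 2 with the lowest p. Other genes were named after their values were seen.

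The pseudocount was 1, giving log2(TPM + 1), and 12294 genes whose mean reached 1 TPM were tested with limma 3.58.1 in R 4.3.3 (moderated, mean-variance trend, two-sided, H182 against DMSO). Benjamini-Hochberg adjustment covered all tested genes, with a threshold of 0.05. Every adjusted p is from this fit unless another scaling is named. "Rose" and "fell" mean that a gene passed. Fold changes are ratios of mean TPM. An exact permutation test of 3 against 3 libraries cannot go below 0.1. On simulated data for this comparison, over 12294 genes, limma called 28.4% of the genes changed by 0.25, 76.4% at 0.5 and 98.6% at 1. The simulations used normal noise and changed far fewer genes than were called here, so recovery in the real data may differ. Coordinates and exons came from GENCODE 29 (GRCh38), which held all 39 member identifiers, 33 with the same version, and promoters from RefSeq (GRCh38.p14). Python 3.11.15 with matplotlib 3.10.9 drew the figures.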

Additional observations from a re-analysis of the deposited data

How the results depend on the processing

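The rises of DNAJB1 (4.43 to 4.65 on the log2 scale), DNAJB4 and DNAJA1 passed under every alternative run: pseudocount, filter, scaling, variance model, library weights, replicate block, stricter threshold and each library left out. DNAJB2 passed in all but the threshold of 0.01. At that threshold 3 members were higher and 1 lower (subfamily C 0 and 1), and of all tested genes 438 were higher and 998 lower. The calls of lower members varied with scaling. They numbered 0 with median-of-ratios scaling, 1 with quantile normalization and 2 with totals taken without HSPA1A, HSPA1B and DNAJB1, all in subfamily C (DNAJC27 in both of the last, at -0.47 and -0.48, and DNAJC9 in the last, at -0.18), and genes lower over the whole table numbered 835, 1261 and 1497. Subfamily C had 2 members higher with median-of-ratios scaling and 2 with quantile normalization, beside 972 and 833 genes higher over the whole table. With no filter 2 members of subfamily A were higher, since DNAJA4 was then tested. The summed TPM of the members differed 3.97-fold with median-of-ratios scaling, and that without DNAJB1 differed 1.30-fold with this scaling and 1.25-fold with totals without the 3 genes.

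Leaving out each library in turn gave 4 to 5 members higher and 1 to 5 lower (0 to 1 and 1 to 5 in subfamily C), and 1407 to 2205 genes lower over the whole table, with 1407 without DMSO replicate 2 and 1486 without H182 replicate 2. A fit with the replicate number as a block gave 6 members higher and 5 lower, adding DNAJB6 (adjusted p = 0.0332) and DNAJC14 (adjusted p = 0.0344). Over the whole table that fit gave 625 genes higher and 2059 lower. The deviations of same-numbered libraries correlated at -0.01, 0.00 and -0.04, and those of differently numbered ones at -0.02 to 0.03. Such values cannot decide whether same-numbered libraries shared a culture or a day, which is not stated. TPM keeps no record of read depth, which limits what can be said of members under 1 TPM.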
